A study of Mus musculus with 9 samples.

Results

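The nuclear genes for respiratory chain complexes II, III and IV and for ATP synthase, which is also called complex V, were followed in mouse morulae whose fathers had or had not consumed alcohol before conception. The genes were chosen by symbol alone: every row beginning with Sdha to Sdhd, Uqcr, Atp5 or Cox and a digit, together with Cyc1, and without the rows marked as pseudogenes by -ps. This gave 63 genes of the 53819 rows in the count files, with 8 for complex II, 9 for complex III, 29 for complex IV and 17 for complex V. Of these, 54 had enough counts to be tested, among 12488 tested genes in all. They were all 8, 9 and 17 genes of complexes II, III and V, and 20 of the 29 of complex IV. The strain was C57BL/6J. Embryos came from in vitro fertilization with the Nakagata method and CARD media and were taken at the morula stage, when the blastomeres compact before the blastocyst cavity forms. There were 3 libraries of total RNA from embryos of control sires, 3 from sires given 6% ethanol and 3 from sires given 10% ethanol. Only the sire's treatment differs in the labels, and no genetic alteration is named. The labels do not say how many embryos or sires stand behind a library, nor the age of the animals or the length of exposure, so p-values measure only how far these 9 libraries scatter, and that scatter may be technical. In bulk libraries such as these, fewer cells of a type and less RNA per cell cannot be told apart.

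Complex II, succinate dehydrogenase, passes electrons from succinate to ubiquinone and is at the same time an enzyme of the tricarboxylic acid cycle. It is encoded by nuclear genes only. Complex III hands the electrons from ubiquinol to cytochrome c and complex IV from cytochrome c to oxygen, and both pump protons. ATP synthase lets the protons flow back and makes ATP. The catalytic core of complex IV, cytochrome b of complex III and a pair of membrane subunits of complex V are encoded in mitochondrial DNA, and the remaining subunits in the nucleus, so each of these 3 complexes needs messages from both genomes. The preimplantation mouse embryo carries mitochondria inherited from the oocyte and turns increasingly to oxidative phosphorylation as it approaches the blastocyst stage.

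Libraries held 6263465 to 27619281 counts. All 12 listed markers of the preimplantation embryo, Pou5f1, Nanog and Cdx2 among them, were tested, and their summed level was 2444 to 5590.1 CPM (counts scaled to a common library total) per library. Summed CPM was 0 to 5.29 for cumulus and granulosa markers, 0 to 3.84 for sperm and spermatid markers, 0 to 10.4 for blood and immune markers, 6.57 to 45.6 for fibroblast markers and 11.1 to 35.4 for striated muscle markers. Only 1 of 6 fibroblast and 2 of 8 striated muscle markers had enough counts to be tested. The 1 tested fibroblast marker held nearly all of the fibroblast sum. In 4 files the heading of the count column named RNA STAR (control 2, 6% ethanol 1, 10% ethanol 1 and 10% ethanol 2, called long headings here), and in 5 it did not (short headings). What this difference records is not given, so it is used only as a mark on the files. It cannot be told apart from depth: the 4 long-heading libraries held 19574710 to 27619281 counts and the 5 short-heading ones 6263465 to 11026334. Values within one heading form are descriptions, since 6% ethanol and control have 1 long-heading library each, and 10% ethanol has 1 short-heading library. The shallowest libraries were 6% ethanol 2 and control 3, with 6263465 and 6813356 counts. They had 13.5% and 7.303% of the tested genes at 0, against 1.497% in control 2. Several results below rest on these 2 libraries, and some of them are given with 1 of the 2 left out. No 2 libraries were alike within counting error (chi-square per degree of freedom at least 116).

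Promoter sequences of 6 genes introduce the set, 2 that were lower with 6% ethanol (Uqcr11 and Atp5g2), 1 subunit of complex II (Sdha), the subunit with the least spread (Atp5b), 1 that was high in 2 libraries (Cox7a2), and 1 isoform of muscle that most of the libraries hardly held (Cox7a1). Each line gives the 120 bases before the RefSeq transcription start, 5′ to 3′ on the gene's strand, from build GRCm38.p6, which is not the build of the count files. Capitals mark matches to GCGCANGCG, the core of the site for NRF1, a transcription factor known for regulating respiratory chain genes, or to CCGGAAG, a site for ETS factors such as GABP, on either strand.
Uqcr11 (chr10:80406822-80406941, minus strand): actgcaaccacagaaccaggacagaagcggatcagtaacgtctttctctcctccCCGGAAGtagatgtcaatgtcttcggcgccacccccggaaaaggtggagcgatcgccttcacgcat
Atp5g2 (chr15:102671048-102671167, minus strand): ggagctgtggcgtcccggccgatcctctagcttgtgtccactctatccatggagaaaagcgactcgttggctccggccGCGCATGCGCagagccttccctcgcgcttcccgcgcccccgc
Sdha (chr13:74350241-74350360, minus strand): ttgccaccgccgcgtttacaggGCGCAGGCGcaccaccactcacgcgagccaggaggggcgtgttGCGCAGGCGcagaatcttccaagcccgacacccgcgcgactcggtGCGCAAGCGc
Atp5b (chr10:128083187-128083306, plus strand): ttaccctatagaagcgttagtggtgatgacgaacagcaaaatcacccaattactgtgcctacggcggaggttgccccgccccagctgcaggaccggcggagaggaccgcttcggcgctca
Cox7a2 (chr9:79759854-79759973, minus strand): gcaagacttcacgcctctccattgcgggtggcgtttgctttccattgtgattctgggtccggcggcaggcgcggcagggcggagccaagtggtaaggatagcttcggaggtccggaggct
Cox7a1 (chr7:30184051-30184170, plus strand): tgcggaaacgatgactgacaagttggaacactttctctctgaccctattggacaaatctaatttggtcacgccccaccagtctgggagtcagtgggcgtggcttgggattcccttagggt
The Uqcr11 stretch holds 1 ETS match, that of Atp5g2 holds 2 overlapping NRF1 matches, 1 on each strand, and that of Sdha holds 3 NRF1 matches. The other 3 stretches hold none. RefSeq promoters were found for 47 of the 63 genes. Within windows of 300 bases around the start, 14 of these 47 genes (29.8%) held the NRF1 letters, against 7.03% of all 27025 genes with a promoter. The ETS letters were in 21 of 47 (44.7%), against 9.93% of all genes. The letters AAGATGGCG, a site for YY1, were in 3 of 47 (6.38%), namely Atp5j, Atp5j2 and Cox10, against 1.64% of all genes. A match describes the letters of the window and is not evidence of binding.

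The 63 genes together had 4038, 5389 and 7672 CPM in controls, 4404, 8006 and 5057 CPM with 6% ethanol, and 4953, 4423 and 5558 CPM with 10% ethanol. Complex V made up the greatest part, with 3050.4 ± 916 CPM in controls, 3111 ± 668 CPM with 6% ethanol and 2775 ± 157 CPM with 10% ethanol (SD, n = 3 each). Complex IV had 1560.4 ± 895, 1579 ± 1167 and 1045 ± 588 CPM in the same order. Complex III had 728 ± 229.7, 709 ± 104 and 800.4 ± 177 CPM, and complex II 360.4 ± 142, 423 ± 99.6 and 358 ± 36.5 CPM. The groups overlapped in each of these sums. In complex IV 6% ethanol 2 and control 3 stood highest, at 2907 and 2562 CPM, while the other 7 libraries lay between 628 and 1717 CPM.

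**Figure D1:**
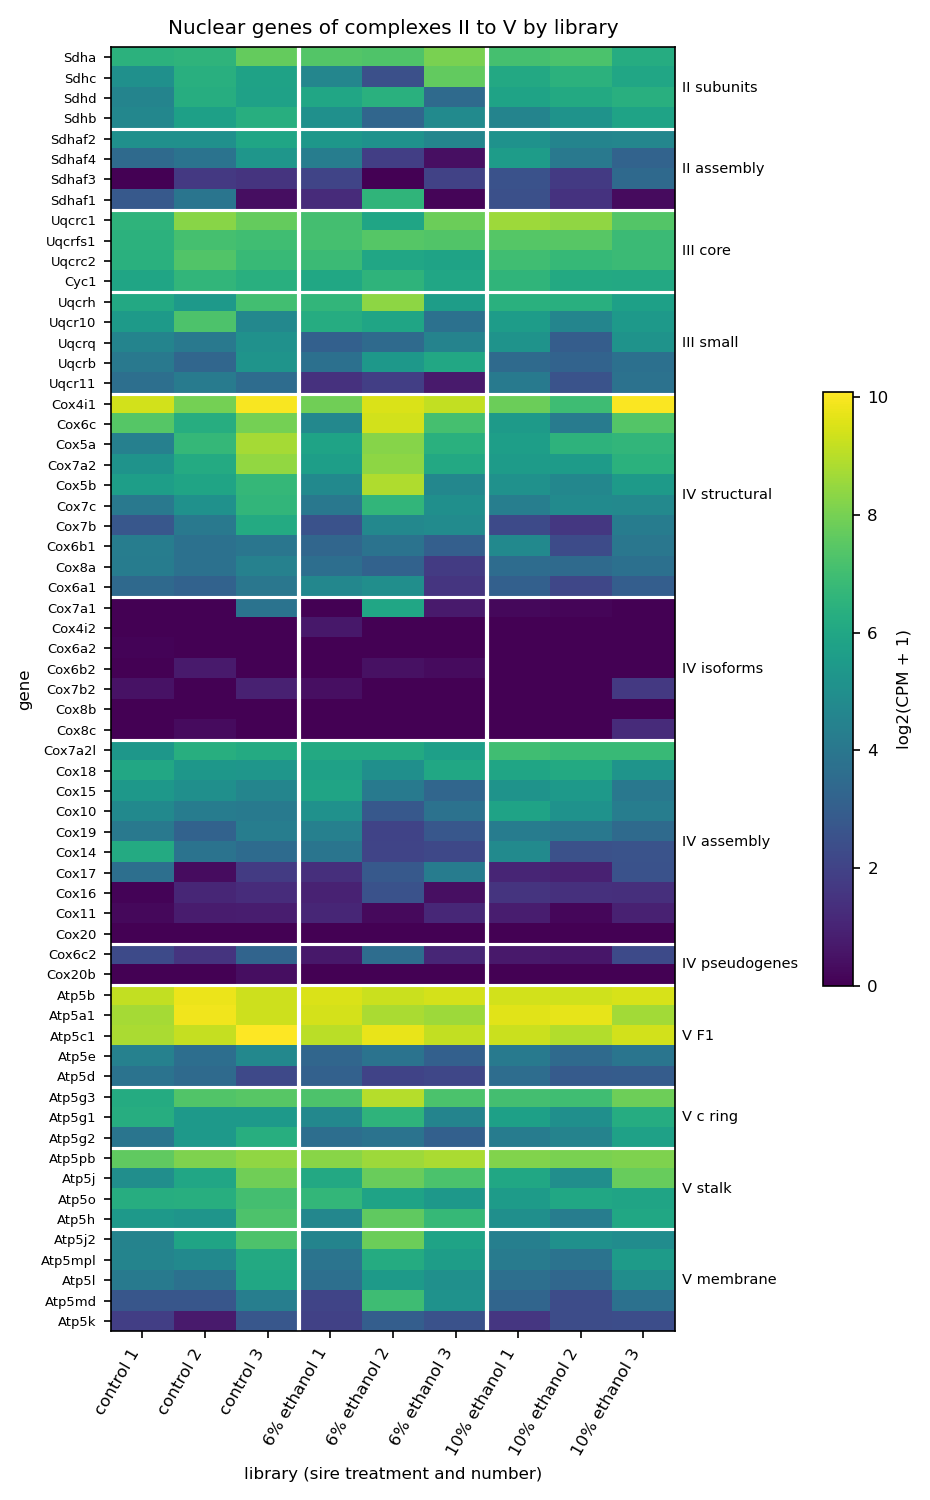
Colour gives log2(CPM + 1) of each of the 63 genes (rows, in subunit groups) in each of the 9 libraries (columns, control, then 6% and 10% ethanol). The F1 subunits Atp5b, Atp5a1 and Atp5c1 and the structural subunit Cox4i1 are bright in most libraries, the tissue-restricted isoforms of complex IV are dark apart from Cox7a1 in 6% ethanol 2 and control 3, and many small subunits of complexes IV and V are brightest in those 2 libraries.

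Per kilobase of transcript, taking the median length of the annotated coding transcripts, the highest median levels over the 9 libraries were those of Cox4i1 (746 CPM per kilobase), Atp5c1 (509), Atp5b (348), Atp5a1 (246) and Cox6c (229). Cox4i1 ranged from 124 to 1035 CPM and Atp5c1 from 449 to 1083 CPM over the 9 libraries, so their order is not fixed beyond that spread. The subunits differed in how steady they were. Atp5b, the catalytic beta subunit of ATP synthase, varied 1.57-fold between its lowest and highest library, Cyc1 1.68-fold and Uqcrfs1 1.97-fold. The median member varied 8.109-fold and the median tested gene 14.35-fold. By group, the median of this ratio was 2.417 for the core of complex III and 2.411 for the F1 part of complex V, against 12.71 for the structural subunits of complex IV and 10.86 for the membrane and dimer subunits of complex V. Genes were not matched for level in these ratios, and the part of level in them was not tested.

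**Figure D2:**
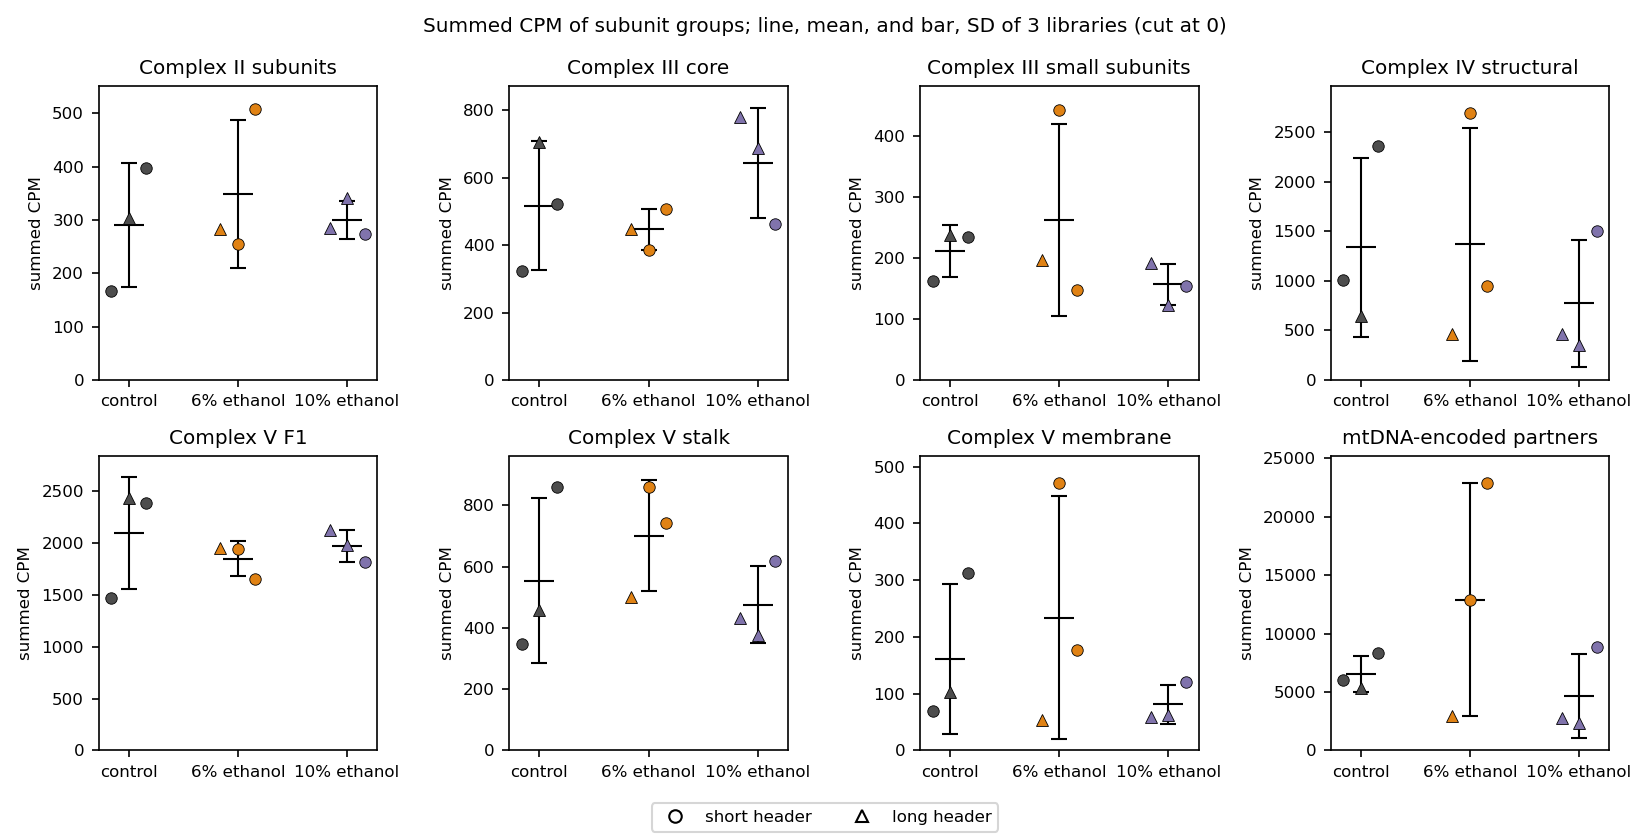
Each panel shows the summed CPM of 1 subunit group in the 9 libraries by sire treatment, with circles for short and triangles for long column headings; the line is the mean and the bar the SD of 3 libraries, cut at 0. The F1 sum stays between 1473 and 2437 CPM, while the structural subunits of complex IV span 348 to 2694 CPM and overlap between all 3 groups.

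With 6% ethanol against control, 3 genes did not overlap with the controls, and all 3 were lower: Uqcr11, a small subunit of complex III, and Atp5g2, a gene for the c subunit of ATP synthase, had lower CPM in all 3 libraries with 6% ethanol than in any control, as did Cox8a, a small subunit of complex IV. No gene of the set lay above all controls. None of the 54 passed edgeR's quasi-likelihood test at an adjusted p of 0.05, as was true of all tested genes (0% called). At an unadjusted p under 0.05 there were 3 of 54 members, 1 higher (Atp5md) and 2 lower (Uqcr11 and Atp5g2), which is near the 6.24% of all tested genes. The 3 members below all controls compare with 4.72% of all tested genes and the 0 above them with 3.35%. DESeq2 on the same genes called 0 members (0.255% of the genes to which it gave an adjusted p). DESeq2 on all rows, an alternative added after the data were seen, called 1 member, Uqcr11 (0.375% of such genes). The median log2 fold change of the 54 was -0.06 with 31 below 0, against -0.01 for all tested genes. By complex it was 0.24 (8 genes), -0.54 (9), -0.08 (20) and -0.04 (17) from II to V. The median over the 54 turned positive without control 3 (0.33) and without 6% ethanol 1 (0.06), was 0.05 within short-heading libraries, and was -0.41 without 6% ethanol 2.

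With 10% ethanol against control, Cox7a2l, a factor that joins complexes III and IV into supercomplexes, had higher CPM in all 3 ethanol libraries than in any control. Sdhaf3 and Cox16 also did, at low levels. Cox5b, Cox6a1 and Cox8a of complex IV and Atp5o of complex V had lower CPM in all 3. These are 3 members above and 4 below the controls, against 4.39% and 3.67% of all tested genes. edgeR called none (0% of all tested genes), and no member had an unadjusted p under 0.05 (2.14% of all tested genes). DESeq2 called 0 members on the same genes (0.0833% of those with an adjusted p) and 0 on all rows (0.168%). The median over the 54 was -0.20 with 37 below 0, against -0.05 for all tested genes. By complex it was 0.04, -0.04, -0.74 and -0.24 from II to V. Without control 3 the median over the 54 was 0.00 with 27 below 0, and that of complex IV was -0.04.

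With 10% against 6% ethanol, Uqcr11, Atp5g2 and Cox7a2l were higher in every library with 10% ethanol, and Uqcrb, Sdha and Atp5pb were lower in every one. These are 3 members above, where 6.05% of all tested genes were, and 3 below, where 3.6% were. edgeR called none (0% of all tested genes). At an unadjusted p under 0.05 there were 5 members, 1 higher (Uqcr11) and 4 lower (Cox5b, Atp5j2, Uqcrb and Atp5md), against 5.33% of all tested genes. DESeq2 called 0 on the same genes (0.258%) and 0 on all rows (0.474%). The median over the 54 was -0.20 with 32 below 0, against -0.02 for all tested genes. It was 0.13 without 6% ethanol 2, 0.09 within long-heading libraries and 0.02 when CPM were scaled to library size alone. For the 2 ethanol doses as 1 group against control, no member passed by edgeR (0%), none had an unadjusted p under 0.05 (4.08% of all tested genes), and DESeq2 called 0 on the same genes (0.142%) and 0 on all rows (0.286%). Cox8a was the 1 member below all controls in all 6 ethanol libraries (1.02% of all tested genes were), and 0 members were above (0.769% were). The median was -0.18 with 35 of 54 below 0 (-0.03 for all tested genes), and 0.17 without control 3. All 3 comparisons with control use the same 3 control libraries. Sdhaf3, Cox16 and Atp5pb, and Cox5b and Cox8a in the comparison of 10% ethanol with control, fell outside the rule for named genes and were chosen after their values were seen. The same holds for Cox8a in the comparison of both doses with control. Scaling to library size alone shifted the median of all tested genes to -0.28 at 6%, -0.17 at 10%, 0.13 between the doses and -0.22 for both doses, so that directions near 0 are relative to the TMM scaling. Errors were large: over all tested genes the median SE was 1.016 at 6% and 1.012 at 10% ethanol against control, on the log2 scale.

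**Figure D3:**
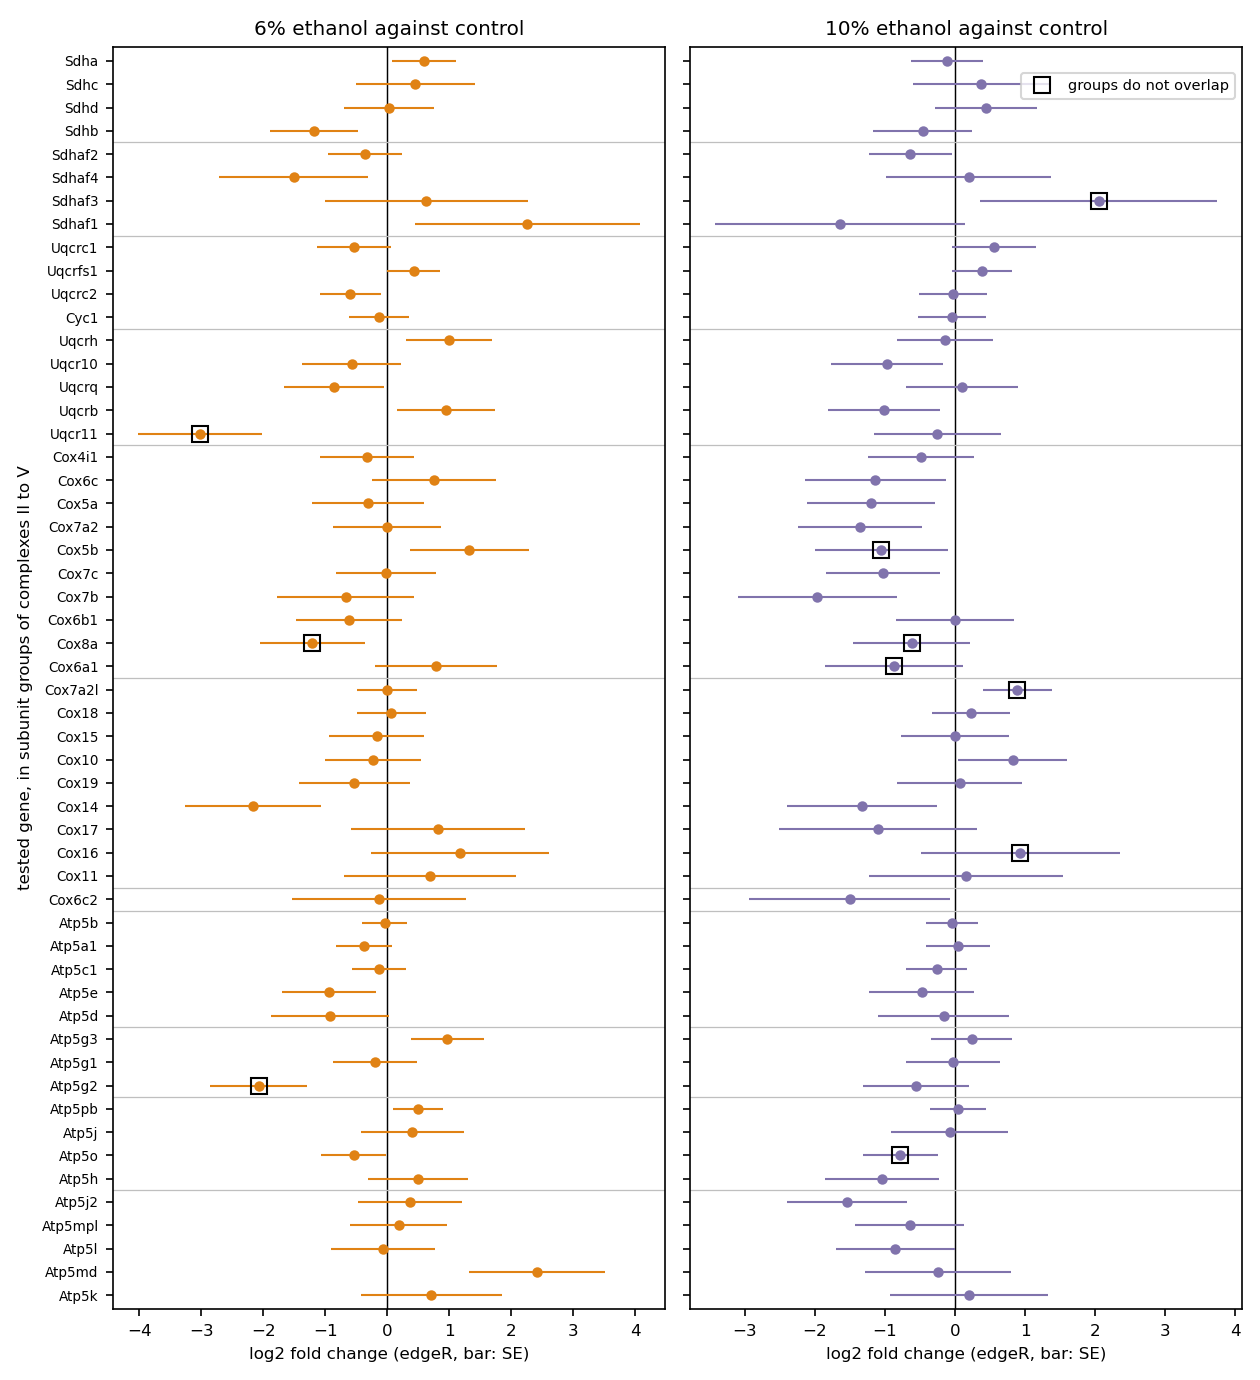
Points give edgeR's log2 fold change of each of the 54 tested genes and bars its SE, for 6% ethanol (left) and 10% ethanol (right) against control; black squares mark genes whose libraries do not overlap between the groups. Uqcr11, Atp5g2 and Cox8a carry squares on the left, and the 10 structural subunits of complex IV lie at or below 0 on the right.

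No subunit of complex II had all libraries of an ethanol group apart from all controls. Sdha, the flavoprotein that oxidises succinate, had 87.8, 93.1 and 209 CPM in controls, 165, 157 and 268 CPM with 6% ethanol, and 138, 147 and 74.2 CPM with 10% ethanol. All 3 libraries with 10% ethanol lay below all 3 with 6% (log2 fold change -0.71 ± 0.52 SE, edgeR adjusted p = 0.8109), and both overlapped the controls. Sdhb, the iron-sulphur subunit, had 24.5, 52.7 and 79.8 CPM in controls, 32.8, 8.94 and 27.2 CPM with 6% ethanol, and 22.2, 35.5 and 56.0 CPM with 10% ethanol. Its lowest library was 6% ethanol 2, and the groups overlapped (6% against control -1.18 ± 0.71). Sdhc and Sdhd encode the membrane anchors of the complex, which bind haem and ubiquinone. Sdhc had 32.4, 81.4 and 55.1 CPM in controls, 23.7, 4.57 and 203 CPM with 6% ethanol, and 67.6, 88.6 and 62.4 CPM with 10% ethanol. Sdhd had 22.3, 76.5 and 53.9 CPM in controls, 61.5, 84.1 and 10.1 CPM with 6% ethanol, and 56.3, 69.3 and 81.8 CPM with 10% ethanol. Among the 6% ethanol libraries these partners ran in opposite orders, with Sdhc lowest in 6% ethanol 2 and highest in 6% ethanol 3, and Sdhd the reverse. Their log2 fold changes against control were 0.45 ± 0.97 and 0.03 ± 0.73 at 6% ethanol and 0.37 ± 0.97 and 0.44 ± 0.73 at 10%.

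Of the assembly factors of complex II, Sdhaf2, which attaches flavin to the Sdha protein, was the steadiest, at 22.4 to 60.3 CPM. Sdhaf4, which helps join Sdha and Sdhb, had 10.2, 13.5 and 38.4 CPM in controls, 18.5, 2.66 and 0.329 CPM with 6% ethanol, and 46.8, 15.8 and 8.18 CPM with 10% ethanol, which is -1.51 ± 1.20 on the log2 scale at 6% ethanol against control and 1.70 ± 1.21 at 10% against 6%, with overlap in both. The 6% value was 0.46 within long-heading libraries, 1 against 1, -4.05 within short-heading ones and -3.84 without 6% ethanol 1. Sdhaf1, which helps mature the iron-sulphur subunit, had 96.8 CPM in 6% ethanol 2 and between 0.110 and 13.9 CPM in the other 8 libraries. A mean of Sdhaf1 over the 6% group therefore describes 1 library. Sdhaf3, a further factor for the iron-sulphur subunit, had 0, 2.16 and 1.90 CPM in controls, 3.25, 0 and 2.96 CPM with 6% ethanol, and 4.90, 2.26 and 9.77 CPM with 10% ethanol (10% against control 2.05 ± 1.69, edgeR adjusted p = 0.9999).

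In complex III the subunits that carry haem c1 and the iron-sulphur centre were steady, and the small ones were not. Cyc1, cytochrome c1, had 59.3, 99.4 and 80.1 CPM in controls, 62.9, 92.7 and 61.9 CPM with 6% ethanol, and 96.1, 69.1 and 66.7 CPM with 10% ethanol. Uqcrfs1, the Rieske iron-sulphur protein, had 88.0, 136 and 128 CPM in controls, 136, 172 and 164 CPM with 6% ethanol, and 170.3, 173 and 116 CPM with 10% ethanol. Both overlapped between all groups, with log2 fold changes against control of -0.14 ± 0.49 and 0.42 ± 0.43 at 6% ethanol and of -0.04 ± 0.49 and 0.39 ± 0.43 at 10%. Uqcrc1 and Uqcrc2 are the core proteins on the matrix side of the complex. Uqcrc1 had 92.3, 309 and 205 CPM in controls, 132, 59.7 and 226 CPM with 6% ethanol, and 389, 338 and 164 CPM with 10% ethanol, and Uqcrc2 had 84.2, 161 and 111 CPM in controls, 117, 62.2 and 56.1 CPM with 6% ethanol, and 125, 108 and 117 CPM with 10% ethanol. Uqcrc1 was 1.10 ± 0.60 at 10% against 6% ethanol (edgeR adjusted p = 0.8062), with overlap between the groups, and Uqcrc2 was 0.57 ± 0.49.

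Uqcr11, a small membrane subunit of complex III with no catalytic centre of its own, had 12.0, 17.5 and 10.96 CPM in controls, 1.69, 2.66 and 0.658 CPM with 6% ethanol, and 16.3, 4.92 and 12.8 CPM with 10% ethanol. All 3 libraries with 6% ethanol lay below every other library. The log2 fold change was -3.02 ± 0.99 SE for 6% ethanol against control (edgeR adjusted p = 0.7993) and 2.77 ± 0.98 for 10% against 6% (edgeR adjusted p = 0.8062). At 10% ethanol it was -0.25 ± 0.91 against control. The 6% value kept its sign under all 22 alternatives, between -3.49 and -2.68, and was -3.37 in the single pair of long-heading libraries, 6% ethanol 1 and control 2, and -2.81 within the short-heading ones. Its DESeq2 adjusted p was 0.06406 on the genes edgeR tested and 0.02878 on all rows. At 0.658 to 2.66 CPM in 6% ethanol, it was among the less abundant members there.

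None of the other small subunits of complex III lay below all controls with 6% ethanol. Uqcrb, known as the ubiquinone-binding subunit, had 15.8, 8.96 and 36.4 CPM in controls, 12.2, 40.7 and 64.7 CPM with 6% ethanol, and 10.1, 8.16 and 12.0 CPM with 10% ethanol. All libraries with 10% ethanol were below all with 6% (-1.96 ± 0.82, edgeR adjusted p = 0.8062), a difference that was -0.43 within long-heading libraries. Uqcrh, the hinge protein between cytochrome c1 and cytochrome c, had 67.0, 42.6 and 128 CPM in controls, 99.4, 328 and 47.5 CPM with 6% ethanol, and 83.2, 80.2 and 51.9 CPM with 10% ethanol, with 6% ethanol 2 the highest and control 3 next. Uqcr10 ranged from 12.7 to 152 CPM, highest in control 2, and Uqcrq from 6.85 to 35.0 CPM.

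The structural subunits of complex IV, which surround the catalytic core made in the mitochondrion, had the lowest median log2 fold change of the subunit groups at 10% ethanol. Their summed level was 1011, 643 and 2357 CPM in controls, 463, 2694 and 949 CPM with 6% ethanol, and 460.5, 348 and 1506 CPM with 10% ethanol. At 10% ethanol against control all 10 had a log2 fold change below 0, from -1.97 (Cox7b) to just under 0 (Cox6b1), with a median of -1.04. The groups did not separate in the sum: 10% ethanol 3 stood above 2 of the 3 controls. Without control 3 the median was -0.25 with 8 of 10 below 0, and over the other libraries left out in turn it ran from -1.31 to -0.77. With heading form as a term it was -0.71, and within long-heading and short-heading libraries -0.56 and -0.81. At 6% ethanol the median was -0.17 with 7 of 10 below 0. It was 0.96 without control 3, 0.23 and 0.03 without 6% ethanol 1 and 3, 0.09 with limma voom and quality weights, and -1.04 without 6% ethanol 2. For 10% against 6% ethanol it was -1.15, and 0.13 without 6% ethanol 2 and -0.02 within long-heading libraries.

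Single subunits of complex IV showed the same dependence on a few libraries. Cox4i1, the largest nuclear subunit, had 668, 252 and 1015 CPM in controls, 240.0, 736 and 564 CPM with 6% ethanol, and 222, 124 and 1035 CPM with 10% ethanol. Its low values, at most 252 CPM, were those of the 4 libraries with long headings, and its difference between heading forms was -1.92 ± 0.36 (edgeR adjusted p = 0.07796, group in the model). Against control it was -0.33 ± 0.75 at 6% and -0.49 ± 0.76 at 10% ethanol. Cox5a, on the matrix side, had 19.9, 103 and 425 CPM in controls, 56.2, 301 and 84.2 CPM with 6% ethanol, and 49.1, 90.9 and 98.4 CPM with 10% ethanol, and Cox7a2, the isoform of subunit 7a found in most tissues, had 34.8, 70.9 and 345 CPM in controls, 49.5, 334 and 66.6 CPM with 6% ethanol, and 44.9, 45.3 and 85.9 CPM with 10% ethanol. For both genes control 3 and 6% ethanol 2 were the 2 highest libraries, at 425 and 301 CPM of Cox5a and 345 and 334 CPM of Cox7a2. At 10% ethanol against control they were -1.20 ± 0.91 and -1.36 ± 0.89 on the log2 scale, which became positive without control 3 (0.36 and 0.14).

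Cox5b, which carries a zinc ion, had 48.9, 57.9 and 103 CPM in controls, 26.6, 475 and 24.4 CPM with 6% ethanol, and 33.0, 24.2 and 44.2 CPM with 10% ethanol. Its 475 CPM in 6% ethanol 2 came from 2498 counts, and the pseudogene row Cox5b-ps had 275 counts in that library against 20 to 44 in the others, so reads may have been shared between these rows. All libraries with 10% ethanol lay below all controls (-1.05 ± 0.95, edgeR adjusted p = 0.9999). At 10% against 6% ethanol the log2 fold change of -2.38 ± 0.99 (edgeR adjusted p = 0.8062) turned to 0.41 without 6% ethanol 2 and 0.09 within long-heading libraries. Cox6a1, the general isoform of subunit 6a, had 9.93, 8.10 and 15.0 CPM in controls, 24.5, 30.6 and 1.97 CPM with 6% ethanol, and 7.60, 3.39 and 7.04 CPM with 10% ethanol. Its 10% ethanol libraries lay below the controls (-0.87 ± 0.98), whereas 6% ethanol gave 0.79 ± 0.98 with overlap, or -0.02 with limma voom and quality weights. Cox8a, the general isoform of the smallest subunit, had 17.9, 12.6 and 20.3 CPM in controls, 11.5, 7.99 and 2.41 CPM with 6% ethanol, and 10.9, 10.1 and 12.2 CPM with 10% ethanol. All 6 ethanol libraries were below all controls, with log2 fold changes of -1.21 ± 0.85 at 6%, -0.62 ± 0.83 at 10% and -0.91 ± 0.70 for both doses, although the highest ethanol library (12.2 CPM) lay close to the lowest control (12.6 CPM) and the 6% value was -0.12 within long-heading libraries, 1 against 1. None of these 3 passed edgeR's test in any comparison.

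Among the remaining structural subunits, Cox6c ranged from 17.4 to 673 CPM, Cox7c from 15.5 to 98.2 CPM, Cox7b from 2.11 to 71.6 CPM and Cox6b1 from 3.90 to 26.6 CPM. Cox6c and Cox7c were highest in 6% ethanol 2, with control 3 next, and Cox7b in control 3. Cox7b was -1.97 ± 1.13 at 10% ethanol against control, and its libraries overlapped. The value was -0.45 without control 3 and -3.37 without 10% ethanol 3.

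**Figure D4:**
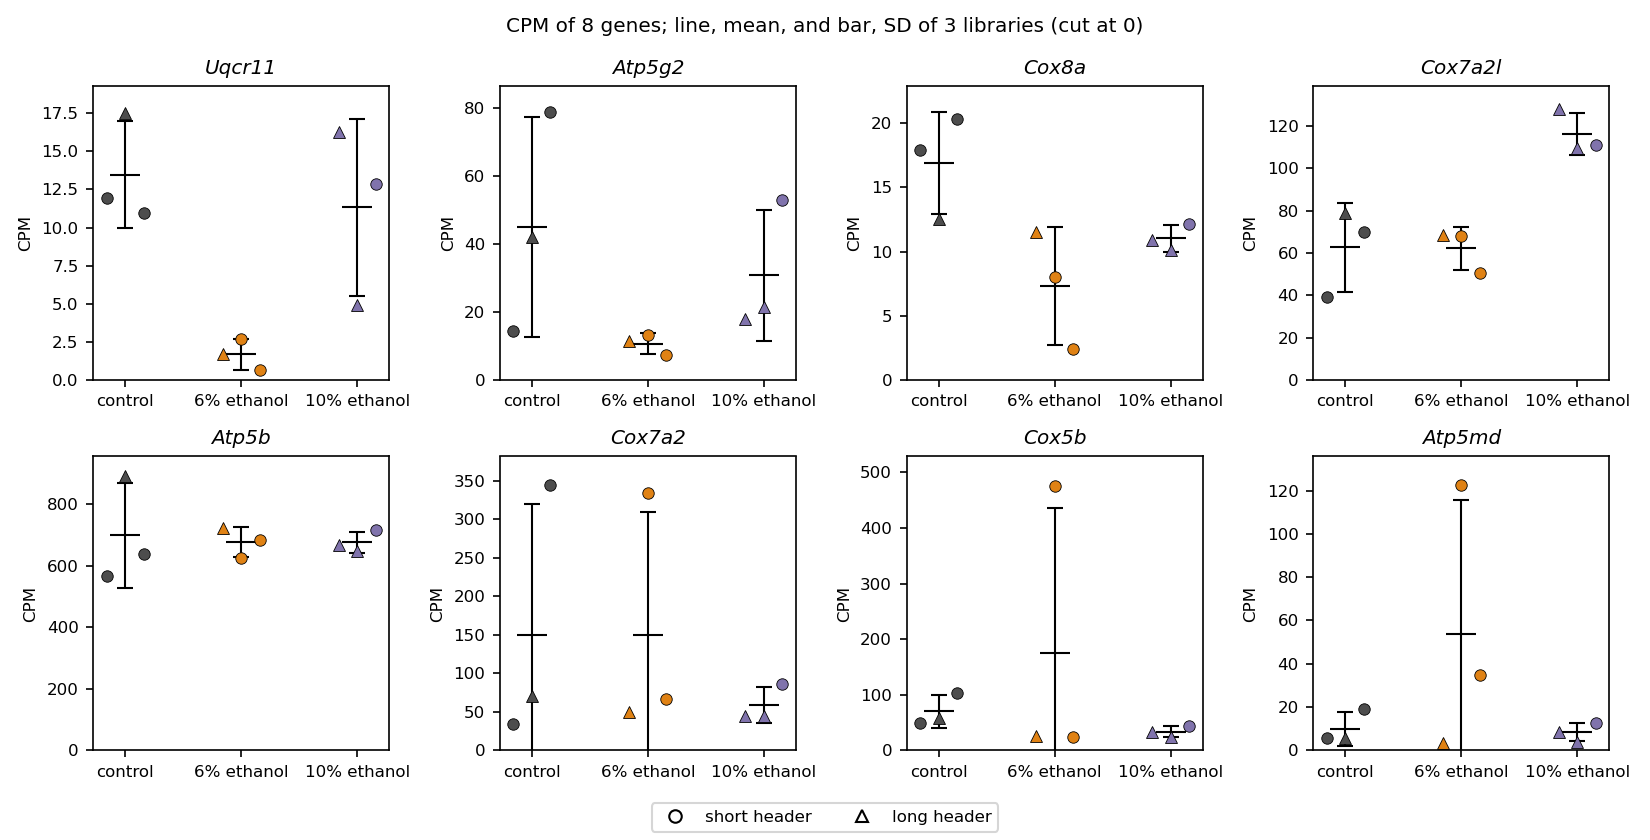
CPM of 8 genes in the 9 libraries by sire treatment, with circles for short and triangles for long column headings; the line is the mean and the bar the SD of 3 libraries, cut at 0. Uqcr11 and Atp5g2 are lowest with 6% ethanol, Cox8a is highest in controls, Cox7a2l is highest with 10% ethanol, Atp5b lies between 568 and 892 CPM in all groups, and the means of Cox7a2, Cox5b and Atp5md are drawn up by 1 library of a group.

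The isoforms of complex IV that belong to particular tissues were almost silent. Cox8b, of heart and skeletal muscle in mice, had 0 counts in all 9 libraries, which allows a level of up to 0.02193 CPM from 3 counts of the 136789664 in all (counting error only). The muscle isoform Cox6a2 reached at most 0.0814 CPM, Cox4i2, an oxygen-responsive isoform known from lung, at most 0.591 CPM, and the testis isoforms Cox6b2, Cox7b2 and Cox8c at most 0.648, 2.16 and 1.36 CPM. Cox7a1, of heart and skeletal muscle, was the exception. It had 61.8 CPM in 6% ethanol 2 and 13.1 CPM in control 3, and 0 to 0.658 CPM in the other 7 libraries. Of 8 listed striated muscle markers 2 were tested. The 8 together summed to 22.3 CPM in 6% ethanol 2 and 25.1 CPM in control 3, and ranged from 16.3 to 35.4 CPM in controls, 11.1 to 27.6 CPM with 6% ethanol and 15.6 to 33.0 CPM with 10% ethanol. Most of it was Actn2, while Myh7, a slow myosin, had 10.3 CPM in 6% ethanol 2 and at most 2.19 CPM elsewhere, and Tnnt3 and Mb had 0 in all 9 libraries. The part of muscle RNA in the Cox7a1 values was not tested. None of these 7 isoforms passed the filter on low counts. When only genes without a single count were left out, Cox7a1 passed at 10% against 6% ethanol (-7.43, edgeR adjusted p = 0.005396), where 6% ethanol 2 held nearly all of its level.

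Of the assembly factors in the set, Cox7a2l, of which C57BL/6J mice carry a shorter form than some other strains, had 39.1, 78.9 and 70.0 CPM in controls, 68.4, 67.9 and 50.6 CPM with 6% ethanol, and 128, 109.7 and 111 CPM with 10% ethanol. The 10% ethanol libraries lay above both other groups, by 0.89 ± 0.49 against control (edgeR adjusted p = 0.9999) and 0.90 ± 0.49 against 6% ethanol. It kept a positive sign under all 22 alternatives in both comparisons, between 0.58 and 1.10 against control and between 0.79 and 1.05 against 6%. Whether the shorter form of this strain joins complexes III and IV in these embryos was not tested. Cox14, which holds newly made Cox1 for assembly, had 69.9, 13.4 and 10.5 CPM in controls, 14.1, 3.23 and 3.51 CPM with 6% ethanol, and 27.7, 4.66 and 4.999 CPM with 10% ethanol (6% against control -2.16 ± 1.09, with overlap). Its highest value was that of control 1, without which the 6% value was -0.78, and within long-heading libraries, 1 against 1, it was 0.07. Cox10 and Cox15, which make haem A for the core of complex IV, ranged from 5.90 to 56.1 and from 9.11 to 58.3 CPM. Cox17, Cox11 and Cox19 take part in copper delivery to the core and ranged from 0.252 to 18.0, 0.146 to 1.21 and 3.04 to 20.2 CPM. Cox18, which inserts Cox2 into the membrane, was steady at 31.8 to 69.2 CPM. Cox16 had 0.0814, 1.12 and 1.46 CPM in controls, 0.970, 4.76 and 0.329 CPM with 6% ethanol, and 1.88, 1.60 and 1.59 CPM with 10% ethanol (10% against control 0.93 ± 1.42). The row Cox20 had 0 counts in all 9 libraries. The rows Cox6c2 and Cox20b matched the rule by symbol, although RefSeq annotates both as pseudogenes; Cox6c2 ranged from 0.510 to 11.2 CPM and Cox20b was at most 0.292 CPM.

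In complex V the F1 part, where ATP is made, was the steadiest. Atp5b had 568, 892 and 637 CPM in controls, 724, 626 and 684 CPM with 6% ethanol, and 667, 649 and 716 CPM with 10% ethanol, and its log2 fold changes were -0.04 ± 0.37 at 6% and -0.05 ± 0.37 at 10% ethanol against control. Atp5a1, the alpha subunit, had 421, 930.2 and 633 CPM in controls, 685, 451 and 393 CPM with 6% ethanol, and 801, 834 and 409 CPM with 10% ethanol, or -0.38 ± 0.46 and 0.04 ± 0.46 for the same comparisons. Its 3 highest libraries, control 2 and 10% ethanol 2 and 1, have long headings, and its difference between heading forms was 0.84 ± 0.30 (edgeR adjusted p = 0.244). Atp5c1, of the central rotor, had 449, 593 and 1083 CPM in controls, 526, 849 and 564 CPM with 6% ethanol, and 625, 483 and 666 CPM with 10% ethanol, highest in control 3 and then 6% ethanol 2. The small rotor subunits Atp5d and Atp5e ranged from 3.04 to 13.3 and 7.46 to 25.1 CPM. Against control all 5 F1 genes were below 0 at 6% ethanol (-0.94 to -0.04) and 4 of 5 at 10% (-0.48 to 0.04). Of all tested genes, 50.5% and 52.9% were below 0. Under the 22 alternatives Atp5b changed sign in 3 at 6% and 2 at 10% ethanol, and Atp5a1 in 0 and 8. Summed F1 levels overlapped between all groups.

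The c ring, which turns as protons pass, is built from 1 mature protein encoded by 3 genes, and these differed from each other. Atp5g2 had 14.3, 42.2 and 78.9 CPM in controls, 11.4, 13.3 and 7.46 CPM with 6% ethanol, and 17.9, 21.5 and 52.9 CPM with 10% ethanol. Every library with 6% ethanol lay below every library of the other groups, though 6% ethanol 2 at 13.3 CPM was close to control 1 at 14.3 CPM. The log2 fold change was -2.07 ± 0.78 for 6% ethanol against control (edgeR adjusted p = 0.7993), 1.52 ± 0.77 for 10% against 6%, and -0.55 ± 0.75 for 10% against control. The first stayed negative under all 22 alternatives, from -2.50 to -1.45, the smallest change being without control 3. Atp5g3 had 72.4, 163 and 177 CPM in controls, 155, 502 and 149.9 CPM with 6% ethanol, and 133, 124 and 229 CPM with 10% ethanol, with 0.97 ± 0.59 at 6% and 0.24 ± 0.58 at 10% ethanol. The 6% value was 0.15 without 6% ethanol 2 and -0.07 within long-heading libraries. The 10% value was -0.06 without control 1, -0.08 without 10% ethanol 3 and -0.35 within long-heading libraries. Atp5g1 had 77.9, 42.1 and 42.8 CPM in controls, 25.2, 93.8 and 22.7 CPM with 6% ethanol, and 52.8, 31.9 and 75.1 CPM with 10% ethanol, with -0.20 ± 0.68 and -0.03 ± 0.68. Summed over the 3 genes the c subunit message was 165, 247 and 298 CPM in controls, 191, 609.6 and 180.0 CPM with 6% ethanol, and 204, 178 and 357 CPM with 10% ethanol, with overlap between all groups.

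Of the stalk that holds the F1 part in place, Atp5pb, the b subunit, had 197, 279 and 337 CPM in controls, 309, 390.2 and 446 CPM with 6% ethanol, and 291, 266 and 280.0 CPM with 10% ethanol. Its 10% ethanol libraries lay below those with 6% (-0.45 ± 0.40, edgeR adjusted p = 0.824), and a pseudogene row of the same name had 34 to 97 counts per library. Atp5o, which caps the stalk, had 76.4, 78.9 and 133 CPM in controls, 101, 55.9 and 40.7 CPM with 6% ethanol, and 45.8, 63.5 and 58.6 CPM with 10% ethanol. All libraries with 10% ethanol lay below all controls (-0.78 ± 0.53, edgeR adjusted p = 0.9999), while those with 6% overlapped them. Atp5h and Atp5j ranged from 18.2 to 197 and 30.2 to 235 CPM. The stalk as a whole had 346, 457 and 859.7 CPM in controls, 502, 859 and 744 CPM with 6% ethanol, and 432, 378 and 618 CPM with 10% ethanol.

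The membrane subunits, several of which hold ATP synthase dimers together, summed to 69.1, 103 and 313 CPM in controls, 54.4, 470.5 and 176 CPM with 6% ethanol, and 59.5, 63.2 and 120.4 CPM with 10% ethanol. They were highest in 6% ethanol 2 and then control 3. Atp5md, a subunit of the dimer interface, had 5.53, 5.54 and 19.0 CPM in controls, 3.25, 123 and 34.7 CPM with 6% ethanol, and 8.65, 4.12 and 12.6 CPM with 10% ethanol. Its log2 fold change of 2.42 ± 1.10 at 6% ethanol against control (edgeR adjusted p = 0.7993) was 0.91 without 6% ethanol 2 and -0.77 within long-heading libraries, 1 against 1. At 10% against 6% ethanol it was -2.66 ± 1.11 (edgeR adjusted p = 0.8062), or -1.14 without 6% ethanol 2 and 0.96 within long-heading libraries. Atp5j2, the f subunit, had 22.0, 58.2 and 154 CPM in controls, 22.6, 224 and 56.6 CPM with 6% ethanol, and 19.4, 32.4 and 28.7 CPM with 10% ethanol. For 10% against 6% ethanol it was -1.91 ± 0.87 (edgeR adjusted p = 0.8062), or -0.54 without 6% ethanol 2 and 0.19 within long-heading libraries. Atp5l, Atp5mpl and Atp5k ranged from 9.32 to 63.8, 13.3 to 73.1 and 0.648 to 7.04 CPM. Outside the chosen symbols, Atpif1, the inhibitor that stops ATP synthase from running backwards, had 1.30, 2.88 and 5.99 CPM in controls, 0.801, 2.47 and 32.6 CPM with 6% ethanol, and 0.781, 0.765 and 5.57 CPM with 10% ethanol, which is 1.82 ± 1.44 at 6% and -0.52 ± 1.41 at 10% ethanol against control.

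The mitochondrially encoded partners of complexes III to V (mt-Cytb, mt-Co1, mt-Co2, mt-Co3, mt-Atp6 and mt-Atp8) summed to 6011, 5379.8 and 8319 CPM in controls, 2958, 12871 and 22872 CPM with 6% ethanol, and 2792, 2357 and 8818 CPM with 10% ethanol. At 6% ethanol against control all 6 had a log2 fold change above 0, with a median of 1.59 (0.56 within long-heading libraries, 1 against 1, where 5 were tested), beside -0.06 for the 54 nuclear genes. At 10% ethanol none of the 6 was above 0, with a median of -0.46, beside -0.20. It turned to 0.38 without control 3 and 0.33 within long-heading libraries. mt-Cytb had 1198, 1223 and 3173 CPM in controls, 1236, 5911 and 10882 CPM with 6% ethanol, and 1213, 792 and 2288 CPM with 10% ethanol, highest in 6% ethanol 3 and 6% ethanol 2. edgeR called none of the 6 in any comparison. These sums were at least 2357 CPM per library, nearly all from mt-Cytb and mt-Co1, while mt-Co2, mt-Co3 and mt-Atp8 stayed at or under 12.6 CPM.

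Other genes of the pathway came from lists drawn up from knowledge of the respiratory chain. No gene of these lists passed edgeR's test in any comparison, and those named here from them were chosen after their values were seen. Of 17 tested assembly factors of complex IV outside the set, 9 were above and 8 below 0 at 6% ethanol (median 0.09, or -0.12 scaled to library size alone), and 8 above and 9 below at 10% (-0.01). At edgeR's unadjusted p under 0.05, 3 were higher (Coa3, Coa8 and Cmc1) and 0 lower at 6% (6.24% of all tested genes). At 10%, 0 were higher and 1 lower, Cmc2 (2.14%). Coa8 lay above all controls at 10% and Cmc2 below, each 1 of 17 (4.39% and 3.67% of all tested genes). In assembly of complex III, Smim4 had 0, 0.144 and 1.17 CPM in controls, 1.01, 1.14 and 1.97 CPM with 6% ethanol, and 7.66, 4.23 and 5.45 CPM with 10% ethanol, with all 10% ethanol libraries above both other groups (3.79 ± 1.56 against control), and Uqcc2, another, was lower in all libraries of either dose than in any control, at 2.66, 1.90 and 2.19 CPM with 6% and 1.15, 2.66 and 0.795 CPM with 10% ethanol, against 3.91, 4.54 and 3.21 CPM in controls. Cmc2, of complex IV assembly, had 101, 20.9 and 54.8 CPM in controls, 34.0, 16.7 and 16.9 CPM with 6% ethanol, and 18.1, 9.76 and 15.1 CPM with 10% ethanol (-2.04 ± 0.73 at 10% against control). Cycs, the somatic cytochrome c that carries electrons between complexes III and IV, had 18.9, 13.2 and 23.2 CPM in controls, 18.1, 64.1 and 18.2 CPM with 6% ethanol, and 12.1, 11.5 and 20.7 CPM with 10% ethanol. Of 48 tested nuclear genes of complex I, 25 were below 0 at 6% (median -0.05) and 34 at 10% ethanol (-0.34).

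In the tricarboxylic acid cycle, which complex II shares, 8 of 13 genes were below 0 at 6% (median -0.40) and 12 of 13 at 10% ethanol (-0.34). At 6% ethanol 5 of the 13 had all libraries below all controls, as 4.72% of all tested genes did. At 10% ethanol 1 did (3.67% of all tested genes), and 1 did in all libraries of both doses (1.02%). Suclg1, a subunit of succinyl-CoA synthetase, which makes the succinate that complex II uses, was lower in all libraries of either dose than in any control, with 281, 275 and 101 CPM at 6% and 247, 245 and 298 CPM at 10%, against 398, 457 and 343 CPM in controls (-0.87 ± 0.46 and -0.60 ± 0.46). Of 12 tested regulators of mitochondrial biogenesis, 7 were above 0 at 6% (5 when scaled to library size alone) and 9 at 10% ethanol. Their log2 fold changes at 6% ran from -4.71 to 1.91. At edgeR's unadjusted p under 0.05, 1 was higher and 1 lower at 6% (6.24% of all tested genes). At 10% ethanol 2 of the 12 had all libraries above all controls (4.39% of all tested genes), and 0 had all below (3.67%). Nrf1, which encodes the factor NRF1, had 43.4, 45.0 and 53.2 CPM in controls, 52.3, 33.7 and 67.0 CPM with 6% ethanol, and 55.9, 78.2 and 54.9 CPM with 10% ethanol. All 10% ethanol libraries lay above all controls (0.42 ± 0.52). Gabpa, of the GABP factor, had 493, 265 and 398 CPM in controls, 426, 385 and 804 CPM with 6% ethanol, and 289, 441 and 439 CPM with 10% ethanol. Esrra, a nuclear receptor known for activating respiratory chain genes, had 9.28, 6.26 and 3.80 CPM in controls, 9.28, 3.61 and 5.81 CPM with 6% ethanol, and 27.4, 15.0 and 18.6 CPM with 10% ethanol, with 10% ethanol above both other groups (1.66 ± 0.85 against control).

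Part of the variation of the set ran across the sire groups. For 14 of the 54 tested members (25.9%), control 3 and 6% ethanol 2 were the 2 highest libraries, as was so for 6.35% of all tested genes. This pair was picked after the values of the set were seen, and no other pair was counted in this way, so the shares are a description only. The 14 were Cox5a, Cox5b, Cox6c, Cox6c2, Cox7a2 and Cox7c of complex IV, Uqcrh of complex III, and Atp5c1, Atp5h, Atp5j, Atp5j2, Atp5k, Atp5l and Atp5mpl of complex V. The highest library was 6% ethanol 2 for 16 members and control 3 for 12. Control 2, 6% ethanol 3 and 10% ethanol 1 were highest for 6 each. Control 1, 6% ethanol 1, 10% ethanol 2 and 10% ethanol 3 were highest for 2 each. Of all tested genes, 16.5% and 11.4% were highest in 6% ethanol 2 and in control 3. Both libraries have short headings and are the shallowest. The share of counts in all mitochondrially encoded rows was 7.36% and 7.172% there, at the low end of the range. It was 7.046% in control 1 and 10.02% to 15.46% in the remaining libraries. The mitochondrially encoded partners of complexes III to V did not follow this share. They summed to 12871 CPM in 6% ethanol 2 and 8319 CPM in control 3, against 2792 CPM in 10% ethanol 1, where the share was 15.46%. The part of depth in this pattern was not tested.

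Between long and short headings, with group in the model, edgeR called 13 of 12488 genes (0.104%) and 0 members. At an unadjusted p under 0.05, 9 members were lower in long-heading libraries (7.28% of all tested genes were) and 1, Atp5a1, was higher (7.53% were). The 9 were Cox4i1, Cox6c, Cox7b, Cox17 and the pseudogene Cox6c2 of complex IV and Atp5h, Atp5j, Atp5l and Atp5mpl of complex V. Cox6c was -2.49 ± 0.64 and Atp5h -1.76 ± 0.56. Of the structural subunits of complex IV, 9 of 10 were lower in long-heading libraries (median -1.18), as were 5 of 5 membrane subunits of complex V (-1.46). In the core of complex III 0 of 4 were lower (0.38), and the median of all tested genes was 0.10.

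These genes also differ in length. Of 28 tested members with transcripts under 800 bases, 22 were lower in long-heading libraries (median -0.93), and of 25 with longer transcripts 8 were (0.20). Over all tested genes the medians were -0.38 for the 443 under 800 bases and 0.23 for the 10193 longer ones. Across the 53 members with a length, Spearman's rho between length and the difference was 0.46, and across all 10636 such genes it was -0.01. Genes are not independent replicates and share the same libraries, so these are descriptions. Each of these differences between long and short headings is equally one between deep and shallow libraries. Length and subunit type overlap in this set too, and the boundary of 800 bases was chosen with these values known.

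**Figure D5:**
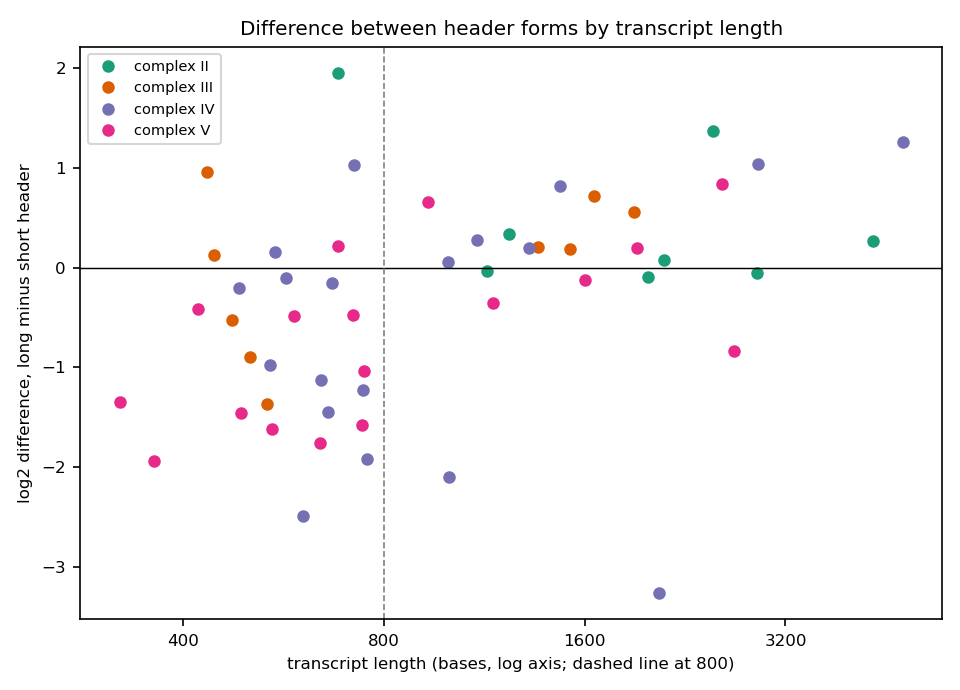
Each point is 1 of the 53 tested members with a transcript length, placed by length in bases (log axis) and by its log2 difference between long-heading and short-heading libraries with sire group in the model. Left of the dashed line at 800 bases 22 of 28 points lie below 0, and right of it 8 of 25.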

How the data were processed

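Total RNA of 9 morula samples was sequenced, and the deposited values are whole-number counts per gene symbol, 1 file per library, made by the authors with featureCounts on GRCm39 (mm39), per the submitters' processing notes, which also name DESeq2. RNA STAR is named as aligner only in 4 column headings, per the file headers; strand setting and annotation are not given in the sources used here, so antisense neighbours and near-identical copies may share reads. Samples were grouped by the labels' sire treatment, with replicate numbers in accession order.

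Counts of all 9 libraries were fitted with edgeR 4.0.16 (R 4.3.3; filterByExpr, TMM scaling, quasi-likelihood F test, Benjamini-Hochberg over 12488 genes, threshold 0.05). The SE is the log2 fold change divided by the root of F. CPM use TMM-scaled totals. DESeq2 1.42.0, limma 3.58.1, other scalings and filters, heading form, thinning, and leaving out each library were alternatives. Code was tested on simulated data. Transcript lengths are medians of GENCODE coding transcripts. Members and lists were chosen with earlier results of these data known. Named with values in all libraries were core subunits fixed by symbol, members at an unadjusted p under 0.05, and in each complex the 2 of smallest p with a group mean of 10 CPM or more. Of these, Sdhaf1, Sdhaf2, Uqcr10 and Cox7b are given as ranges, not library by library.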

Additional observations from a re-analysis of the deposited data

How the results depend on the processing

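Of the counts of called members, 0 in all 4 comparisons, 2 moved under an alternative. DESeq2 on all rows called 1 member at 6% ethanol against control (Uqcr11), and keeping every gene with 1 count or more called 1 at 10% against 6% ethanol (Cox7a1). Leaving out 1 library at a time gave 0 calls throughout. The median log2 fold change over tested members then ran from -0.41 to 0.33 at 6% ethanol, from -0.35 to 0.00 at 10%, from -0.23 to 0.13 for 10% against 6% ethanol, and from -0.31 to 0.17 for both doses against control, and the cause of the moves was not tested. Of the members named, 9 of 23 kept their sign under every alternative at 6% ethanol, 9 of 26 at 10%, 8 of 25 between the doses and 6 of 23 for both doses. The common biological coefficient of variation of 0.9108 and 3 libraries a group limit what could be called. No paired analysis was possible because the numbers follow accession order and mark no shared litter, sire or day.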

Other observations

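The symbol rule left out 11 rows marked as pseudogenes of the chosen genes. Only Cox5b-ps and Atp5pb-ps reached more than 16 counts in any library. Cox5b-ps had 275 counts in 6% ethanol 2, against 20 to 44 in the other 8 libraries, and Atp5pb-ps had 34 to 97 counts per library. These are raw counts, not scaled to depth. Atp5k-ps3 had 0 counts in all 9 libraries.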
